A study of Mus musculus with 8 samples.

Results

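The 39 genes described here encode the machinery of autophagy and of LC3-associated phagocytosis (LAP), chosen by name as a functional group: the core autophagy-related (Atg) genes, the subunits of the initiation and lipid kinase complexes, the LC3 and GABARAP proteins, and cargo receptors. All 39 symbols were found among the 47643 genes of the count tables, and all 39 had enough reads to be tested. Their mRNA was measured in peritoneal macrophages of C57 BL/6 mice. In the first group, macrophages shared a well with NIH 3T3 FV-hCasp8 cells and were treated with B/B Homodimerizer (MΦ+FV-Casp8+Dimerizer, 4 libraries, named co-culture below). In the second group, macrophages received the same dimerizer without fibroblasts (MΦ+Dimerizer, 4 libraries, named dimerizer alone below). NIH 3T3 is a mouse fibroblast line. Its FV-hCasp8 derivative, grown from single clones, carries a human caspase-8 whose death effector domains were replaced by a dimerizer-binding domain, so that the dimerizer starts apoptosis. Both groups were exposed to 10 nM dimerizer for 48 h in wells with 500000 macrophages, and in the co-culture a transwell membrane with 5 μm pores kept the fibroblasts apart. By the study's methods, macrophages and fibroblasts were already kept together overnight before the dimerizer was given. The macrophages were the adherent cells of a peritoneal lavage, and the study describes its replicates as macrophages from individual animals, of an age that the sources do not state. Macrophages kept with living fibroblasts were not among these libraries, so an effect of fibroblasts and an effect of their death cannot be told apart.

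Autophagy is the process by which a cell encloses its own cytoplasm in a double membrane, the autophagosome, and delivers it to the lysosome. It begins with a kinase complex around ULK1 or ULK2, continues with a lipid kinase that makes phosphatidylinositol 3-phosphate (PI3P), and ends with the attachment of LC3 and GABARAP proteins to the growing membrane. LAP is a related process in phagocytes, known for the handling of engulfed dead cells: LC3 is attached to the single membrane of the phagosome with the same conjugation enzymes, but without the ULK complex, and with Rubicon, UVRAG and the NADPH oxidase NOX2 in addition. Protein amounts, LC3 attachment and flux through these routes are not visible in mRNA counts.

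Each library held 6954153 to 11506556 reads in the co-culture and 5904441 to 8932884 reads with dimerizer alone, recovered from the normalized counts. Differences were tested with limma on log2(normalized count + 1) over the 12029 genes that averaged 10 or more normalized counts, and a call means an adjusted p under 0.05 over all of them. All 10 macrophage markers were detected in every library, led by Lyz2 and Tyrobp, 3 of them called higher and 3 lower. Their summed level was 238629.8 to 266732.2 normalized counts in the co-culture and 216485.2 to 224143.7 with dimerizer alone. Most of this sum was Lyz2, at 187941.6 to 211300.4 in the co-culture and 159356.4 to 169827.3 with dimerizer alone. Lyz2 did not pass (adjusted p = 0.188 by limma), although its groups did not overlap. Because Lyz2 makes up most of the sum, the sum says little about the other markers. Markers of other cells were present too. Of 12 fibroblast markers, led by Col1a2 and Sparc, 10 were tested and 8 were called lower, with a summed level of 2970.4 to 4476.9 in the co-culture against 7064.8 to 10722.3 with dimerizer alone, and with Lum at or near 0. Mesothelial markers, led by Wt1 and Upk1b, summed to 56.0 to 102.9 in the co-culture against 151.3 to 215.7 with dimerizer alone, and of 5 markers the 3 that could be tested were all lower. Neutrophil markers, led by Mmp8 and S100a8, summed to 1020.3 to 1740.0 in the co-culture against 2051.9 to 5232.8 with dimerizer alone, the larger part being Mmp8. Of 3 tested markers 2 were lower (Mmp8 and Csf3r). S100a9 averaged 5.2 normalized counts, too low to be tested, and Ly6g was at 0 in every library. B cell markers, led by Ighm and Ms4a1, overlapped at 1824.1 to 4989.7 in the co-culture against 666.8 to 4020.3 with dimerizer alone. Mast cell markers, led by Cpa3 and Tpsb2, overlapped at 521.2 to 1474.0 in the co-culture against 563.7 to 3705.9 with dimerizer alone, and 0 of 5 passed with limma, also 0 at an unadjusted p under 0.05. T and NK cell markers, led by Cd3d and Klrb1c, summed to 4.6 to 16.2 in the co-culture against 6.9 to 25.6 with dimerizer alone, too few to test. The part of these cells in the results below was not tested.

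Among the 39 autophagy genes, 5 were higher and 9 were lower in the co-culture, and 25 did not pass the test. The higher genes were Atg101, Atg10, Ulk2, Wipi1 and Uvrag, and the lower genes were Gabarapl1, Map1lc3a, Optn, Tecpr1, Atg7, Atg14, Atg13, Vmp1 and Sqstm1. The 14 called genes were 35.9% of the group, beside 28.7% called among all genes tested (15% higher and 13.7% lower), a share near the background. In all 14 the co-culture and dimerizer-alone libraries did not overlap, and in all 25 others they did, beside 29.4% of all genes tested without overlap. The same 14 genes passed with edgeR and with DESeq2 on the recovered reads, which called 29% and 22.4% of all their genes, and with the replicate number as a block in limma, which called 36.7%. The changes were small. None of the 14 reached a 2-fold change on the log2(normalized count + 1) scale, whereas 921 of the 3452 called genes of the whole table (26.7%) did. The median size of the log2 fold change was 0.135 over the 39 genes and 0.223 over all genes tested. These comparisons were not matched for level. In direction, the median log2 fold change was -0.08 over the 39 genes and 0.01 over all genes tested. In bulk RNA, fewer cells of a type and less RNA per cell cannot be told apart.

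**Figure D1:**
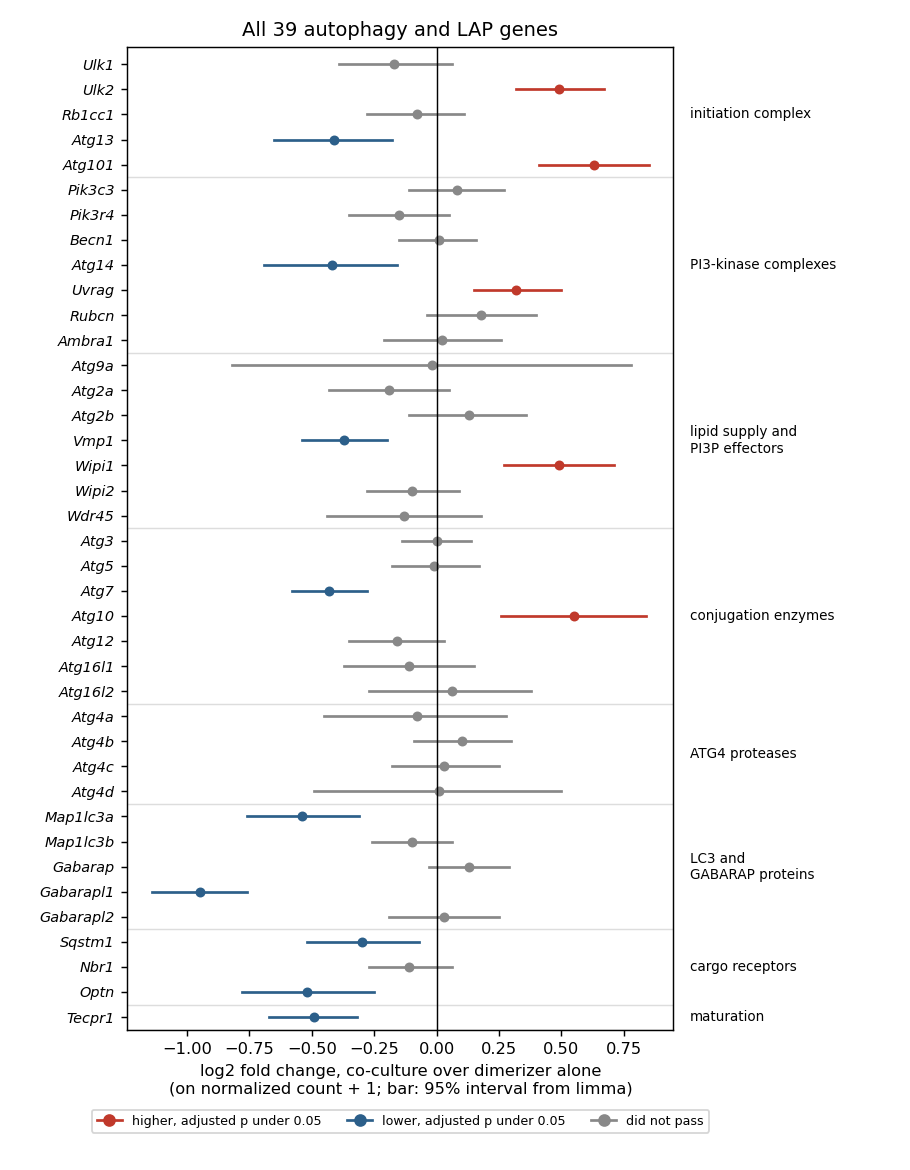
The plot shows, for each of the 39 genes, the log2 fold change of co-culture over dimerizer alone on normalized count + 1 (horizontal axis), with the 95% interval from limma as a bar, and the genes grouped by role down the page. Gabarapl1 lies farthest to the left at -0.95 and Atg101 farthest to the right at 0.63, and called genes of opposite direction stand side by side in 4 of the 8 groups.

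The LC3 and GABARAP proteins are small ubiquitin-like proteins that are attached to the autophagosome or phagosome membrane and hold cargo receptors there. Of the 5 genes measured, Gabarapl1 and Map1lc3a fell and the other 3 did not pass. Gabarapl1 (ENSMUSG00000030161, chr6:129533160-129542346) was the member with the largest change. It had 959.0, 891.4, 832.1 and 786.9 normalized counts in the co-culture libraries, against 1633.9, 1924.4, 1529.6 and 1626.4 with dimerizer alone. The highest co-culture library stood well below the lowest dimerizer-alone library, and on average the level fell by 48.3%, with a log2 fold change of -0.95 ± 0.09 (SE) and an adjusted p = 5.53e-06 by limma. Among the 1646 lower genes of the table it held place 484 by size of the fall. The RefSeq promoter of Gabarapl1 (GRCm38.p6, chr6:129532942-129533241, plus strand, 250 bases before to 50 after the start site) is shown for this gene because it changed most. Lower case marks that none of the motifs searched, named further on, was found in it.
Gabarapl1: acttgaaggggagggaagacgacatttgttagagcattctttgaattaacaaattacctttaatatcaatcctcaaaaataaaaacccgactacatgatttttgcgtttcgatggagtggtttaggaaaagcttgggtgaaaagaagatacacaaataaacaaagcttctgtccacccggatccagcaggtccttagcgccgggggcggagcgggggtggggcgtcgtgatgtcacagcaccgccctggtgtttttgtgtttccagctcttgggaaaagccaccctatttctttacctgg

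Map1lc3a, which encodes LC3A (ENSMUSG00000027602, chr2:155276297-155278073), had 226.3, 199.8, 178.0 and 198.9 normalized counts in the co-culture and 299.6, 283.8, 259.3 and 323.3 with dimerizer alone. The groups did not overlap, with a log2 fold change of -0.54 ± 0.10 (SE) and an adjusted p = 0.00162 by limma. Pigu lies on the opposite strand within 500 bases of its 3′ end, at a mean of 99.8 normalized counts. Map1lc3b, which encodes LC3B, the form most often followed as a marker of autophagosomes, behaved otherwise. It had 2209.7, 2178.5, 1942.0 and 1978.4 normalized counts in the co-culture and 2323.7, 2319.1, 2212.0 and 2053.9 with dimerizer alone, with a log2 fold change of -0.10 ± 0.07 (SE) and an adjusted p = 0.333 by limma. These ranges overlapped. At 95% identity or more over at least 100 bases, the 3′ end of Map1lc3b matches 36 other genes. Of these, 4 are processed pseudogenes (Gm6054, Gm6055, Gm5612 and Gm12727), matched over 272 to 275 bases and listed at 0. The other 32 share a stretch of 101 to 112 bases, and 17 of them are expressed at a mean of at least 10, Npepps highest at 1171. How the counting treated reads that match several genes is not stated, so the level of Map1lc3b is uncertain. Gabarap had 2161.5, 2379.8, 2048.8 and 2030.3 normalized counts in the co-culture and 1918.3, 2054.7, 1846.3 and 2035.2 with dimerizer alone, with a log2 fold change of 0.13 ± 0.07 (SE) and an adjusted p = 0.2 by limma. Gabarapl2, also known as GATE-16, had means of 187.4 ± 3.7 in the co-culture and 184.6 ± 19.9 with dimerizer alone (SD) and a log2 fold change of 0.03. So the nearest relatives Gabarap and Gabarapl1 gave values of opposite sign, of which only that of Gabarapl1 passed.

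The initiation complex joins the kinases ULK1 or ULK2 with the scaffold RB1CC1 (also FIP200) and the adaptors ATG13 and ATG101, and receives signals from the nutrient sensors mTORC1 and AMPK. Ulk2 and Atg101 rose, Atg13 fell, and Ulk1 and Rb1cc1 did not pass. Atg101 (ENSMUSG00000037204, chr15:101284272-101290945), the partner that stabilises ATG13 in the complex, had 428.4, 534.7, 433.4 and 456.5 normalized counts in the co-culture, against 288.6, 337.9, 263.0 and 306.6 with dimerizer alone. The lowest co-culture library exceeded the highest dimerizer-alone library, with a log2 fold change of 0.63 ± 0.10 (SE) and an adjusted p = 0.000417 by limma. Atg13 itself (ENSMUSG00000027244, chr2:91674618-91710576) went the other way. It had 124.0, 138.9, 140.4 and 126.8 normalized counts in the co-culture and 173.1, 202.5, 171.3 and 162.2 with dimerizer alone, again without overlap, with a log2 fold change of -0.41 ± 0.11 (SE) and an adjusted p = 0.0109 by limma. The 2 partners of this pair thus moved in opposite directions in the same libraries.

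Ulk2 (ENSMUSG00000004798, chr11:61775649-61855073) had 629.4, 668.4, 676.5 and 654.1 normalized counts in the co-culture and 512.6, 426.9, 494.4 and 437.3 with dimerizer alone. The co-culture libraries lay close together and all above the others, with a log2 fold change of 0.49 ± 0.08 (SE) and an adjusted p = 0.000484 by limma. For its relative Ulk1 the means were 263.0 ± 36.7 in the co-culture and 293.4 ± 10.7 with dimerizer alone (SD), the ranges overlapped, and limma gave a log2 fold change of -0.17 with a 95% interval of -0.39 to 0.06. Rb1cc1, the scaffold, had 892.4, 773.5, 960.3 and 956.2 normalized counts in the co-culture and 847.8, 932.5, 1068.5 and 943.4 with dimerizer alone. These values were mixed between the groups, with a log2 fold change of -0.08 ± 0.09 (SE) and an adjusted p = 0.544 by limma.

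PI3P is made by the lipid kinase VPS34 (Pik3c3) bound to VPS15 (Pik3r4) and Beclin 1 (Becn1). This core takes up either ATG14, which directs it to the forming autophagosome, or UVRAG, which directs it to endosomes and, with Rubicon (Rubcn), to the phagosome in LAP. The 3 core genes did not pass, while the alternative partners differed in opposite directions. Uvrag (ENSMUSG00000035354, chr7:98885021-99141141) had 693.7, 677.4, 716.2 and 724.2 normalized counts in the co-culture, against 564.8, 488.8, 605.6 and 594.6 with dimerizer alone. All co-culture libraries were higher, with a log2 fold change of 0.32 ± 0.08 (SE) and an adjusted p = 0.00909 by limma. Atg14 (ENSMUSG00000037526, chr14:47540893-47570649) had 145.9, 120.9, 135.3 and 105.9 normalized counts in the co-culture, against 153.9, 174.1, 188.9 and 162.2 with dimerizer alone. Here all co-culture libraries were lower, although the nearest values of the groups, 145.9 and 153.9, lay close, with a log2 fold change of -0.42 ± 0.12 (SE) and an adjusted p = 0.0204 by limma. The call for Atg14 was lost without co-culture replicate 4 (adjusted p = 0.0691 by limma) and without dimerizer-alone replicate 3 (adjusted p = 0.06 by limma).

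The RefSeq promoters of these alternative partners (GRCm38.p6) are shown because the genes moved in opposite directions. For Atg14 (chr14:47568385-47568684, minus strand) the capitals mark the motif CACGTG, the E-box of the CLEAR element known to be bound by TFEB and related factors, which begins 1 base before the start site. The promoter of Uvrag (chr7:99141095-99141394, minus strand) holds none of the motifs searched.
Atg14: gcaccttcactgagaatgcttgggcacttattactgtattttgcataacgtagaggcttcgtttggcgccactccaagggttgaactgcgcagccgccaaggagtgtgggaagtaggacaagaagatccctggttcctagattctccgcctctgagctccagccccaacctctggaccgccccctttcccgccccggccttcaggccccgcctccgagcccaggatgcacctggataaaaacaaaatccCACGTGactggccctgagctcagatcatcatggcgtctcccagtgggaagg
Uvrag: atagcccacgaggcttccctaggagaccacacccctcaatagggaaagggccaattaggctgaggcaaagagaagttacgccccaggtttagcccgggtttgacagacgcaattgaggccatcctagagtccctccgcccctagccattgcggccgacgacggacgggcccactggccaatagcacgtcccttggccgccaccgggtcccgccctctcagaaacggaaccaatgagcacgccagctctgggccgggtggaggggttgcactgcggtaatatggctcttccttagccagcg

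Among the core subunits, Becn1 had means of 651.1 ± 12.1 in the co-culture and 649.1 ± 40.9 with dimerizer alone (SD), with a 95% interval of the log2 fold change of -0.15 to 0.16 by limma. Pik3c3 had a log2 fold change of 0.08, with means of 406.5 ± 28.8 in the co-culture and 384.3 ± 32.0 with dimerizer alone (SD). Pik3r4 had a log2 fold change of -0.15, with means of 266.4 ± 20.6 in the co-culture and 295.9 ± 22.7 with dimerizer alone (SD). The 95% intervals of these 3 genes lay between -0.35 and 0.27. Rubcn encodes Rubicon, which is required for LAP and restrains canonical autophagy. It had 314.7, 353.0, 387.6 and 335.1 normalized counts in the co-culture and 318.8, 350.8, 296.3 and 263.4 with dimerizer alone, which overlapped. Its log2 fold change was 0.18 with a 95% interval of -0.04 to 0.40 by limma, so that a rise of the size seen in Uvrag lies inside the interval. Ambra1, which regulates Beclin 1, had a log2 fold change of 0.02.

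The next group supplies lipid to the growing membrane or reads the PI3P on it. Wipi1 rose, Vmp1 fell, and Atg9a, Atg2a, Atg2b, Wipi2 and Wdr45 did not pass. Wipi1 (ENSMUSG00000041895, chr11:109573331-109611967), a PI3P-binding protein, had 518.0, 603.0, 458.8 and 575.8 normalized counts in the co-culture, against 369.6, 437.3, 356.5 and 368.5 with dimerizer alone. Dimerizer-alone replicate 2 came nearest to the co-culture libraries but remained below all of them, with a log2 fold change of 0.49 ± 0.10 (SE) and an adjusted p = 0.00265 by limma. Arsg lies on the opposite strand within 500 bases of its 3′ end, at a mean of 324.2 normalized counts. Its relative Wipi2, which recruits ATG16L1 to the membrane, had means of 307.9 ± 16.2 in the co-culture and 330.0 ± 24.8 with dimerizer alone (SD), and the 95% interval of its log2 fold change ran from -0.28 to 0.09 by limma. Vmp1 (ENSMUSG00000018171, chr11:86583865-86683836), a lipid scramblase of the endoplasmic reticulum, had 1649.2, 1469.6, 1339.7 and 1634.5 normalized counts in the co-culture, against 2050.2, 1892.2, 1925.0 and 1968.4 with dimerizer alone. Co-culture replicates 1 and 4 stood highest in their group and still below every dimerizer-alone library, with a log2 fold change of -0.37 ± 0.08 (SE) and an adjusted p = 0.00322 by limma. The lipid transfer genes Atg2a and Atg2b had log2 fold changes of -0.19 and 0.13. Wdr45 encodes a further PI3P-binding protein (WIPI4) and had a log2 fold change of -0.13. Atg9a, a scramblase carried on vesicles, was the least counted member. It had 21.8, 7.5, 9.2 and 12.8 normalized counts in the co-culture and 12.4, 7.7, 13.0 and 16.7 with dimerizer alone. At this depth its 95% interval of -0.82 to 0.78 on the log2 scale allows changes as large as that of Wipi1, so a difference was not detectable.

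The conjugation enzymes attach LC3 and GABARAP proteins to lipid. ATG7 activates both ATG12 and LC3, ATG10 passes ATG12 to ATG5, ATG3 passes LC3 to lipid, and the ATG12-ATG5-ATG16L1 complex directs the last step in autophagy and in LAP. Atg7 fell, Atg10 rose, and the other 5 did not pass. Atg7 (ENSMUSG00000030314, chr6:114643097-114860614) had 605.3, 547.5, 550.3 and 577.2 normalized counts in the co-culture, against 747.5, 764.9, 750.9 and 800.9 with dimerizer alone. The gap between the groups was larger than the range within either of them, with a log2 fold change of -0.43 ± 0.07 (SE) and an adjusted p = 0.000483 by limma. Vgll4, on the opposite strand within 500 bases of its 3′ end, had a mean of 428.3 normalized counts. Atg10 (ENSMUSG00000021619, chr13:90935356-91223968) had 103.4, 138.9, 121.1 and 134.2 normalized counts in the co-culture, against 71.5, 90.3, 87.0 and 89.4 with dimerizer alone. The separation was again complete, with a log2 fold change of 0.55 ± 0.14 (SE) and an adjusted p = 0.00818 by limma.

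Atg3 and Atg5 were among the most even members. Atg3 had 838.4, 820.0, 832.1 and 776.1 normalized counts in the co-culture and 834.1, 813.9, 808.3 and 806.8 with dimerizer alone, with a log2 fold change of 0.00 ± 0.06 (SE) and an adjusted p = 0.992 by limma and a 95% interval of -0.14 to 0.14. For Atg5, there were 665.0, 798.3, 756.8 and 756.6 normalized counts in the co-culture and 672.0, 782.9, 783.3 and 749.8 with dimerizer alone, with a log2 fold change of -0.01 ± 0.08 (SE) and an adjusted p = 0.968 by limma and a 95% interval of -0.18 to 0.17. In both genes the 2 sets of libraries were interleaved, and the intervals leave room only for changes smaller than that of Atg7. Atg12 had a log2 fold change of -0.16, Atg16l1 of -0.11 and its paralog Atg16l2 of 0.06. The opposite-strand neighbour Fchsd2 of Atg16l2 had a mean of 199.5 normalized counts against 90.5 for Atg16l2 itself. The ATG4 proteases trim new LC3 and GABARAP proteins and later release them from lipid. None of the 4 genes passed by limma, and 0 of them did at an unadjusted p under 0.05 or under any of the 16 alternative settings, which included edgeR and DESeq2. Their log2 fold changes were -0.08 for Atg4a, 0.10 for Atg4b, 0.03 for Atg4c and 0.01 for Atg4d, the last with a wide 95% interval of -0.49 to 0.50. Kri1, on the opposite strand near the 3′ end of Atg4d, had a mean of 103.1 normalized counts against 39.5 for Atg4d.

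Cargo receptors bind ubiquitin on one side and LC3 or GABARAP on the other. Optn and Sqstm1 fell, and Nbr1 did not pass (log2 fold change -0.11, 95% interval -0.27 to 0.06 by limma). Optn (ENSMUSG00000026672, chr2:5020642-5064051), which encodes optineurin, a receptor for damaged mitochondria and bacteria, had 126.3, 140.4, 145.5 and 111.3 normalized counts in the co-culture, against 202.0, 175.4, 163.0 and 211.3 with dimerizer alone. All co-culture libraries were lower, with a log2 fold change of -0.52 ± 0.12 (SE) and an adjusted p = 0.00653 by limma. Sqstm1 (ENSMUSG00000015837, chr11:50199366-50210827) encodes p62, whose protein is itself degraded by autophagy. It had 3979.6, 3971.8, 3272.5 and 2927.8 normalized counts in the co-culture, against 4217.3, 4879.4, 4196.3 and 3985.9 with dimerizer alone. Co-culture replicates 1 and 2 came close to the lowest dimerizer-alone library without reaching it, while replicates 3 and 4 were well below it, with a log2 fold change of -0.30 ± 0.10 (SE) and an adjusted p = 0.049 by limma. This call was the weakest of the 14 and was lost under 6 of 16 alternatives, namely without a filter on low values (adjusted p = 0.0648 by limma), without co-culture replicate 3 (0.122) or 4 (0.15), and without dimerizer-alone replicate 1 (0.089), 2 (0.127) or 3 (0.0743). On the opposite strand Mrnip lies within 500 bases of the 3′ end of Sqstm1, at a mean of 14.8 normalized counts against 3929 for Sqstm1.

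Tecpr1 (ENSMUSG00000066621, chr5:144194442-144223615) encodes a protein that binds ATG12-ATG5 and PI3P and takes part in the joining of autophagosomes with lysosomes. It had 462.8, 389.0, 405.9 and 411.3 normalized counts in the co-culture, against 636.2, 580.4, 551.8 and 578.8 with dimerizer alone. The groups were clearly apart, with a log2 fold change of -0.49 ± 0.08 (SE) and an adjusted p = 0.000548 by limma.

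**Figure D2:**
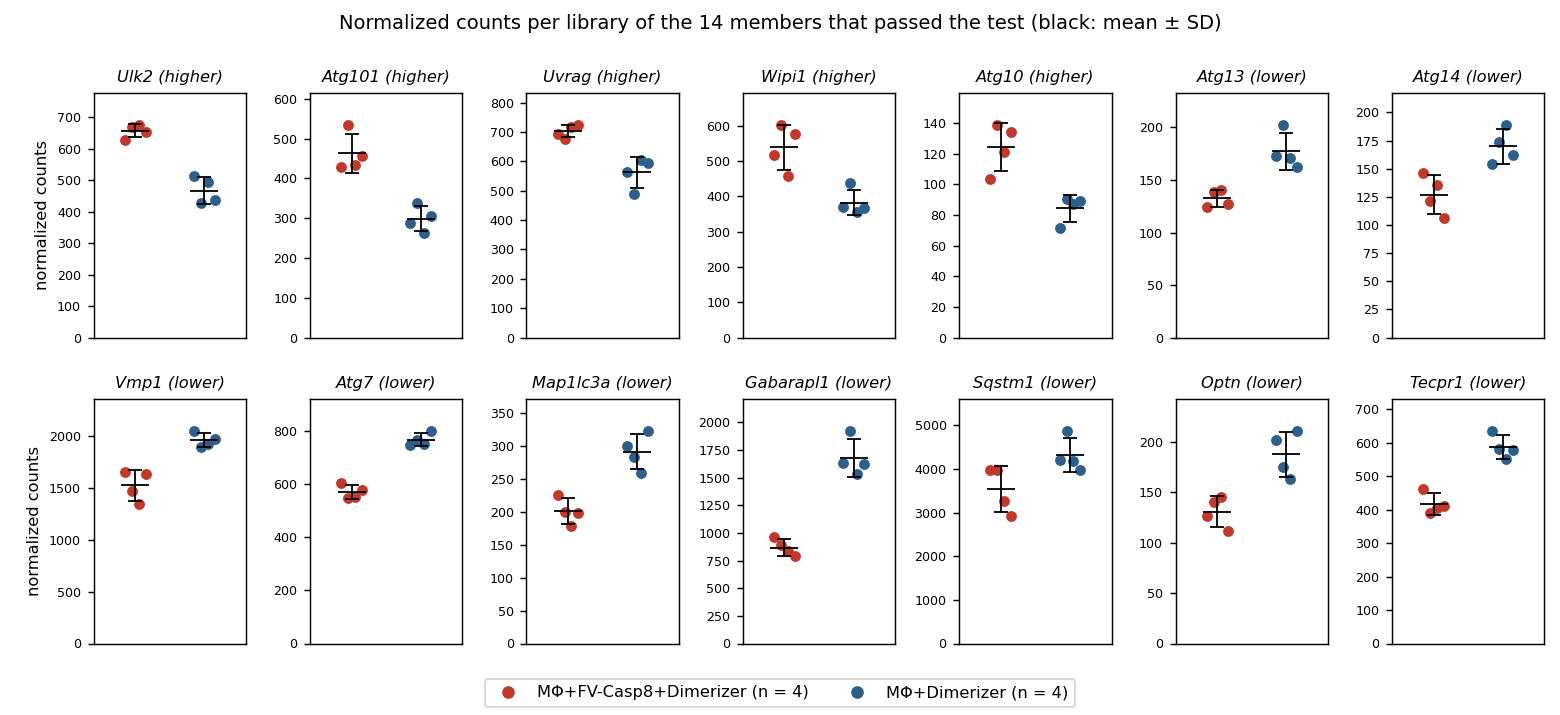
Each panel shows the normalized counts of a called gene (vertical axis, from 0) in the 4 co-culture libraries (left) and the 4 dimerizer-alone libraries (right), each point being a library and the line the group mean with its SD. Gabarapl1 shows the widest gap between means relative to its level, with means of 867.4 in the co-culture and 1678.6 with dimerizer alone, and in Sqstm1 the upper co-culture points, 3979.6 and 3971.8, almost meet the lowest dimerizer-alone point at 3985.9.

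Across the 39 genes, replicate libraries varied little. The coefficient of variation had a median of 8.89% in the co-culture and 8.97% with dimerizer alone, against 11.9% and 11.8% over all genes tested. Those genes were not matched to the 39 for level. Among the 39 the coefficient was highest in Atg9a (49.9% in the co-culture and 29.6% with dimerizer alone). Of the 25 genes that did not pass, the log2 fold changes lay between -0.19 and 0.18, and in 23 of them the 95% interval stayed within 0.5 either way. The exceptions were Atg9a and Atg4d, and 36 of the 39 genes had a mean of at least 100 normalized counts.

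Because partners or paralogs often differed in sign, their ratio was formed within each library for 6 pairs. The pairs were chosen after the values had been seen, the ratios are a description without a test, and they compare libraries with each other, not the amounts of the 2 genes. Atg101 over Atg13 was 3.45, 3.85, 3.09 and 3.60 in the co-culture, against 1.67, 1.67, 1.54 and 1.89 with dimerizer alone. This was the widest relative shift among the ratios that were higher, and the groups did not overlap. Uvrag over Atg14, the partners of the lipid kinase, was 4.76, 5.60, 5.29 and 6.84 in the co-culture, against 3.67, 2.81, 3.21 and 3.67 with dimerizer alone. Gabarapl1 over Gabarap was 0.444, 0.375, 0.406 and 0.388 in the co-culture, against 0.852, 0.937, 0.828 and 0.799 with dimerizer alone. Every co-culture library thus had about the same balance of these relatives, and it differed from that of every dimerizer-alone library. Ulk2 over Ulk1 ranged from 2.09 to 3.08 in the co-culture and from 1.40 to 1.80 with dimerizer alone. Wipi1 over Wipi2 ranged from 1.45 to 2.11 in the co-culture and from 1.02 to 1.31 with dimerizer alone. Map1lc3a over Map1lc3b was 0.0917 to 0.102 in the co-culture and 0.117 to 0.157 with dimerizer alone. That the groups did not overlap in these ratios follows from how the pairs were chosen.

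**Figure D3:**
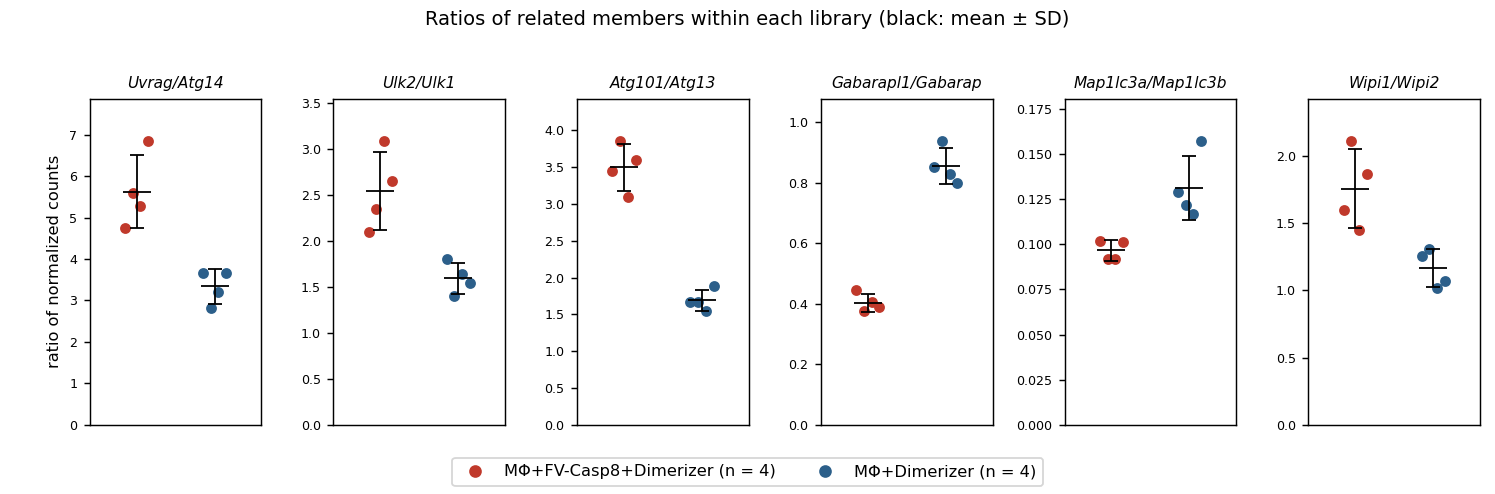
Each panel shows the ratio of the normalized counts of 2 genes (vertical axis, from 0) in the 4 co-culture libraries (left) and the 4 dimerizer-alone libraries (right), with the line at the group mean and its SD. The ratio of Atg101 to Atg13 averaged 3.50 in the co-culture and 1.69 with dimerizer alone, and that of Gabarapl1 to Gabarap averaged 0.403 in the co-culture and 0.854 with dimerizer alone.

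Promoter sequences were searched for 4 short motifs on both strands: CACGTG, its extended form TCACGTG, the forkhead motif GTAAACA and the AP-1 motif TGACTCA. The first is contained in the second. RefSeq promoters were matched for 33 of the 39 genes, and Atg12, Becn1, Atg16l1, Map1lc3a, Pik3c3 and Rb1cc1 had no entry. CACGTG occurred in 5 of the 33 (15.2%), namely Atg14, Atg3, Atg5, Atg7 and Rubcn, and in 8.09% of the promoters of all 27025 genes with an entry. The extended form occurred in 4 of these 5, Atg5 excepted (12.1%, against 4.29% of all genes). Of the 13 called genes with a promoter, Atg14 and Atg7 held CACGTG, and both fell, while Atg3, Atg5 and Rubcn, which also held it, did not pass. For Rubcn the RefSeq start at chr16:32868366 held the motif, whereas the one at chr16:32877729 did not. GTAAACA (4.05% of all genes) and TGACTCA (5.95%) were not found in the 33. The RefSeq start of Atg7 lies 9066 bases from the nearest transcript start of GENCODE M21, so its window may not cover the start used in these cells.

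Further genes of the pathway were followed in 5 lists of 60 genes in all, of which 9 were higher and 12 were lower (35%, beside 28.7% of all genes tested). The number of higher genes was 5 without co-culture replicate 2 and also 5 without dimerizer-alone replicate 2, and it was 15 with the replicate number as a block. NOX2 makes the superoxide that LAP requires. Of the NOX2 list 71.4% was called, beside 28.7% of all genes tested, and not every gene of it is named here. Cybb, Cyba and Ncf4 fell, Ncf1 rose, and Rac1 and Rac2 did not pass. Cybb, the catalytic subunit gp91phox, had 20840.7, 17848.1, 18533.5 and 17768.3 normalized counts in the co-culture, against 32372.1, 31092.5, 34464.5 and 33171.0 with dimerizer alone. All co-culture libraries were far below the others, with a log2 fold change of -0.81 ± 0.09 (SE) and an adjusted p = 2.79e-05 by limma. Cyba, which encodes p22phox, the membrane partner of the catalytic subunit, was also lower, with a log2 fold change of -0.40 ± 0.08 (SE) and an adjusted p = 0.00289 by limma. Its means were 4328.1 ± 269.5 in the co-culture and 5740.7 ± 546.2 with dimerizer alone (SD). The cytosolic subunits differed from each other. Ncf4 (p40phox) was lower, with a log2 fold change of -0.36, whereas Ncf1, the organiser p47phox, was higher, with a log2 fold change of 0.42 ± 0.09 (SE) and an adjusted p = 0.0031 by limma. The means of Ncf1 were 3085.1 ± 75.4 in the co-culture and 2314.3 ± 315.4 with dimerizer alone (SD). Neutrophils express NOX2 as well, and of their markers Mmp8 and Csf3r were lower in the co-culture too. S100a8 had means of 331.8 in the co-culture and 275.5 with dimerizer alone without passing. S100a9, too low to be tested, had means of 7.7 in the co-culture and 2.7 with dimerizer alone, and Ly6g was at 0. The part of neutrophils in the NOX2 values was not tested.

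Among 17 further cargo receptors, 3 rose and 3 fell (35.3%, beside 28.7% of all genes tested). Here too relatives differed. Bnip3, a mitochondrial receptor known as a target of hypoxia signalling, had 458.3, 477.6, 383.5 and 601.5 normalized counts in the co-culture, against 285.8, 238.6, 238.0 and 299.7 with dimerizer alone, with a log2 fold change of 0.84 ± 0.13 (SE) and an adjusted p = 0.000307 by limma. Its paralog Bnip3l (NIX) had 606.4, 567.7, 546.3 and 606.9 in the co-culture, against 935.8, 977.7, 924.1 and 855.0 with dimerizer alone, with a log2 fold change of -0.66 ± 0.07 (SE) and an adjusted p = 2.1e-05 by limma. Neither pair of groups overlapped. Ccpg1, a receptor of the endoplasmic reticulum, was lower (log2 fold change -0.44) and Wdfy3, an adaptor for protein aggregates, was higher (log2 fold change 0.27), though the call for Wdfy3 was lost under 2 of 16 alternatives. Ncoa4, the ferritin receptor, was lower at -0.60 and Fundc1, a mitochondrial receptor, was higher at 0.22, but the call for Ncoa4 was lost under 7 and that for Fundc1 under 9 of 16 alternatives. Of 13 fusion genes, 3 rose and 2 fell (38.5%, beside the same 28.7%). Snap29 and Ykt6, both SNAREs of this fusion step, were higher (log2 fold changes 0.34 and 0.35), as was the tether Epg5 (0.31). Plekhm1, a Rab7 effector, and Vps39, a subunit of the HOPS tether, were lower (-0.39 and -0.35). The call for Ykt6 was lost under 4 and that for Epg5 under 10 of 16 alternatives.

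Upstream of the ULK complex, mTORC1 restrains and AMPK promotes initiation. Of these 14 genes, 1 rose and 3 fell (28.6%, beside 28.7% of all genes tested), a share at the background. Tsc2 and Tsc1, which encode the complex that restrains mTORC1, were lower. Tsc2 had means of 122.3 ± 8.1 in the co-culture and 189.6 ± 19.5 with dimerizer alone (SD), with a log2 fold change of -0.63 ± 0.11 (SE) and an adjusted p = 0.000857 by limma. For Tsc1 the means were 263.7 ± 31.3 in the co-culture and 373.2 ± 35.3 with dimerizer alone (SD), with a log2 fold change of -0.50 ± 0.10 (SE) and an adjusted p = 0.00289 by limma. Neither gene overlapped between the groups. Rptor, the mTORC1 subunit Raptor, was lower as well (log2 fold change -0.40), a call lost under 8 of 16 alternatives. Prkag1, a regulatory subunit of AMPK, was higher, with means of 453.8 ± 52.2 in the co-culture and 316.0 ± 30.4 with dimerizer alone (SD) and a log2 fold change of 0.52 ± 0.10 (SE) and an adjusted p = 0.00212 by limma. Mtor itself had a log2 fold change of -0.08 and did not pass. Among 9 further initiation and nucleation genes only Wdr45b was called (11.1%), at a log2 fold change of 0.19, and this call was lost under 12 of 16 alternatives.

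**Figure D4:**
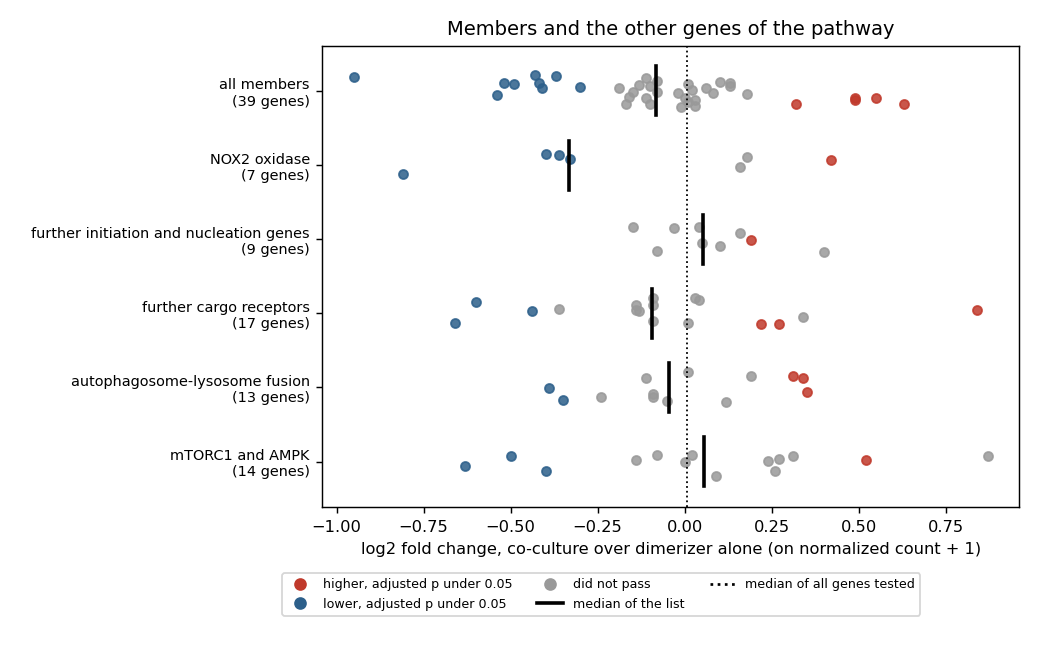
Each point is a gene, placed by its log2 fold change of co-culture over dimerizer alone on normalized count + 1 (horizontal axis), with the 39 autophagy genes at the top and the 5 further lists below, black bars at each median and a dotted line at the median of all genes tested. In the NOX2 list Cybb lies farthest to the left at -0.81, and the 4 lists below it have medians between -0.09 and 0.05.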

How the data were processed

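Sequencing of mRNA 3′ ends (QuantSeq with unique molecular identifiers) gave 8 macrophage libraries, which the sample labels place in groups of 4. The authors' mapping used GRCm38 and Lexogen's FWD UMI pipeline (version 2.3.1), followed by its QuantSeq DE pipeline (version 1.3.1). STAR, HTSeq and DESeq2 are named in the submitters' processing notes. The annotation release was not given in the sources used here, nor was the strand setting of the counting, so reads of a gene and of an antisense neighbour cannot be told apart. Such neighbours lie within 500 bases of the 3′ ends of Atg16l2, Atg4d, Atg7, Becn1, Map1lc3a, Map1lc3b, Pik3r4, Sqstm1, Tecpr1 and Wipi1, and for Atg16l2 and Atg4d the neighbour had the higher mean. On the same strand Tmem106a (mean 3404) lies as near to Nbr1 (604), Abcb6 (10.9) to Atg9a (12.6) and Praf2 (57.7) to Wdr45 (111.2). Genes with near-identical stretches were found for Map1lc3b, Rb1cc1, Atg4a, Wdr45 and Atg9a. The deposited signal is the normalized count, which the authors obtained by dividing whole reads by size factors (100% of values came out whole within 0.001 reads). Recovered reads per library were 5904441 to 11506556, so that low genes such as Atg9a carry wide intervals. No libraries of a group were duplicates of each other.

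Symbols were mapped with GENCODE M21 (99.1% of 47643 genes matched). limma 3.58.1 in R 4.3.3 was fitted with a variance trend on log2(normalized count + 1) for 12029 genes with a mean of at least 10, with Benjamini-Hochberg adjustment at 0.05, and the fit was tested on simulated data. A fold change on this scale understates that of low genes. Each limma p-value weighs the difference between the groups against the spread between the 4 libraries of each group. That spread is drawn toward a trend over all genes tested. Alternatives were a pseudocount of 0.5 or of 5, the table without a filter or with means above 30 only, quantile normalization, edgeR 4.0.16 and DESeq2 1.42.0 on the recovered reads, the replicate number as a block, and each library left out in turn. Members and lists were chosen with earlier results of these data known. Values in every library are given for the called members and for the 5 uncalled members of highest mean, and from each further list the 2 genes of smallest adjusted p in each direction are named. Other genes of those lists, and Rubcn and Atg9a in full, were chosen after their values were seen. Promoters are from RefSeq on GRCm38.p6. Values of some genes of the further lists are not reported here. Protein sequences were not analysed here. Tables and figures were made in Python 3.11.15 with matplotlib 3.10.9, numpy 2.4.6 and pandas 2.3.3.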

Additional observations from a re-analysis of the deposited data

Results flagged for a closer look

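In 78 sets of 4 values, the 39 genes in each group, a library was called far from the rest where its gap to the nearest other, divided by the range, exceeded Dixon's 95% critical value. Chance gives about 1 in 20 such sets, and 2 were found, both in MΦ+Dimerizer replicate 2. For Becn1 this library had 588.2 normalized counts, below the other dimerizer-alone libraries at 663.7 to 674.2 (gap 0.879 of the range). For Wipi1 it had 437.3 normalized counts, above the others at 356.5 to 369.6 (gap 0.837 of the range). Without it Becn1 did not pass and Wipi1 remained higher.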

How the results depend on the processing

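Of the 14 called autophagy genes, 12 passed under all 16 alternatives, Atg14 failed under 2 and Sqstm1 under 6, and none of the other 25 passed under any. No result reversed. With each library left out in turn, 5 autophagy genes were higher and 7 to 9 lower, 1449 to 1698 of all genes were higher and 1287 to 1598 lower, and of the 60 further pathway genes 5 to 10 were higher and 10 to 11 lower. With the replicate number as a block, the same 14 autophagy genes passed, 15 pathway genes were higher against 9 without it, and 36.7% of all genes were called. Deviations of same-numbered libraries correlated at 0.09 to 0.34, above 0.1 in 3 of 4 pairs, and each of the 8 libraries had its best correlation with its own number. The column names of both groups also share their leading numbers. Whether a number names the same animal in both groups is not stated. The main fit did not take the numbers as pairs, and these values do not exclude a pairing. Among 1771 values of 111 followed genes (members, pathway lists and leading markers), 60 calls were lost and 23 gained. Of the pathway genes, calls were lost for Wdr45b (12 alternatives), Epg5 (10), Fundc1 (9), Rptor (8), Ncoa4 (7), Ykt6 (4) and Wdfy3 (2), and the 6 that the block added were Rac2, Tollip, Prkaa1, Prkaa2, Prkab1 and Prkag2. The filter at a mean above 30 left out Atg9a, Prkaa2, Rubcnl, Stbd1 and Upk1b. The part of other cell types in these results was not tested.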
